A study of Oryza sativa with 8 samples.

Results

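The genes described here are 3 rice genes of the pathogenesis-related 10 (PR10) family: OsPBZ1 (Os12g0555500), RSOsPR10 (Os12g0555000) and OsPR10b (Os12g0555200). They were found by looking for these names as whole words among the symbol columns of the deposited table, and each name matched 1 of 46120 gene rows. All 3 loci carry the chromosome number 12 in their identifiers and lie close together in locus order. Similar names recur among their synonyms (PBZ1 for OsPR10b, OsPR10a for RSOsPR10), so the locus identifier settles which gene is meant.

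PR10 proteins are small intracellular plant proteins built on the Bet v I fold, which encloses a large hydrophobic pocket, and several have ribonuclease activity. In rice, PBZ1 was named for its induction by probenazole, a compound that primes resistance to blast disease, and it is widely used as a marker of defence and of defence-linked cell death. RSOsPR10 is known as a root gene induced by drought, salt, jasmonate and probenazole, and JIOsPR10, a relative on another chromosome, as a jasmonate-inducible gene.

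The RNA came from hydroponically grown rice of the cultivar Tsukinohikari kept at sufficient iron before and during the treatment. Each of roots and leaves gave 1 sample of the non-transformant (NT) and 1 sample from each of 3 lines overexpressing the bZIP transcription factor gene OsbZIP83. The lines are named b83OX-13, b83OX-15 and b83OX-19 in the labels and are written as lines 13, 15 and 19. The labels give neither the promoter of the transgene nor the plants' age nor how many plants made up a sample. NT had no replicate in either tissue, and each line had 1 library per tissue. The p-values of lines against NT reflect only how far the 3 lines lay apart, and those between tissues also how far NT lay from the lines. Part of either spread may be technical. Lasy-Seq, which sequences the 3′ ends of transcripts, was used for the libraries, and levels are reads per 1000000 gene reads of a library (RPM).

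One read was worth about 0.028 RPM in the deepest and 0.0588 RPM in the shallowest library. The targeted gene checked the labels: OsbZIP83 was at 32.0 RPM in NT roots and 176 ± 19.1 RPM in roots of the lines (SD, n = 3), and at 1.62 and 90.3 ± 13.2 RPM in leaves. Of 5 root markers the silicon transporter Lsi1 and the manganese transporter OsNRAMP5 were the ones above 0 in any leaf library, and the 5 summed to at most 4.33 RPM in leaves against 7058 to 9082 RPM in roots. The 7 leaf markers summed to 68629 to 84586 RPM in leaves and to at most 4.77 RPM in roots of the lines. In NT roots they summed to 190.2 RPM, all of it from the chlorophyll a-b binding protein gene OsCAB1R. Low marker values may be lowered by the deduction described with the leaf comparison, so a listed 0 need not mean no reads. One library stood apart in the genes described here. Leaves of line 15 were at least 2-fold above each of the other 3 leaf libraries in 115 of 13515 genes with a leaf mean of at least 5 RPM, or 0.851%, against 0.126% for line 13, 0.133% for line 19 and 0.733% for NT. The mean counts every leaf library, so a gene can enter through the library where it is high. Test results for the 3 PR10 genes that rest on this library are given with and without line 15. Those fits left out its root library along with its leaf library.

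RSOsPR10, the gene known for root expression, was at 117 RPM in NT roots and at 407, 250.3 and 191 RPM in roots of lines 13, 15 and 19. Its leaf level was 0.664 RPM in NT, then 2.93, 103 and 7.20 RPM in the same lines. Every root library lay above every leaf library, but line 15 leaves came within reach of NT roots while the other 3 leaf libraries were lower by more than an order of magnitude. The ratio of root to leaf was 176.5 in NT, 139 in line 13, 26.5 in line 19 and 2.42 in line 15. The low leaf values carry a small deduction, described with the leaf comparison. With an estimate of it added back the ratio was 47.95 in NT and 101.5 in line 13, so the order of these 2 turned, and 21.8 and 2.40 in lines 19 and 15.

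OsPR10b followed the same division between tissues. Its level was 96.1 RPM in NT roots and 328, 156 and 126 RPM in roots of lines 13, 15 and 19. NT leaves held 4.11 RPM, and leaves of those lines 6.50, 36.9 and 5.88 RPM. The groups of root and leaf libraries did not overlap, line 13 was the highest root library, and line 15 was the highest leaf library. Such lack of overlap was not counted over all genes, of which 82.7% passed the tissue test given below. Its ratio of root to leaf was 23.4 in NT, 50.5 in line 13, 21.5 in line 19 and 4.22 in line 15.

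OsPBZ1, whose annotation names a ribonuclease of disease resistance, lay the other way round. It was at 25.8 RPM in NT roots and at 53.0, 18.7 and 13.3 RPM in roots of lines 13, 15 and 19. NT leaves held 61.1 RPM, and leaves of those lines 70.5, 197 and 53.6 RPM. Again the tissues did not overlap, though the lowest leaf library, line 19, lay close above the highest root library, line 13. The ratio of leaf to root was 2.37 in NT, 1.33 in line 13, 4.04 in line 19 and 10.5 in line 15.

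**Figure D1:**
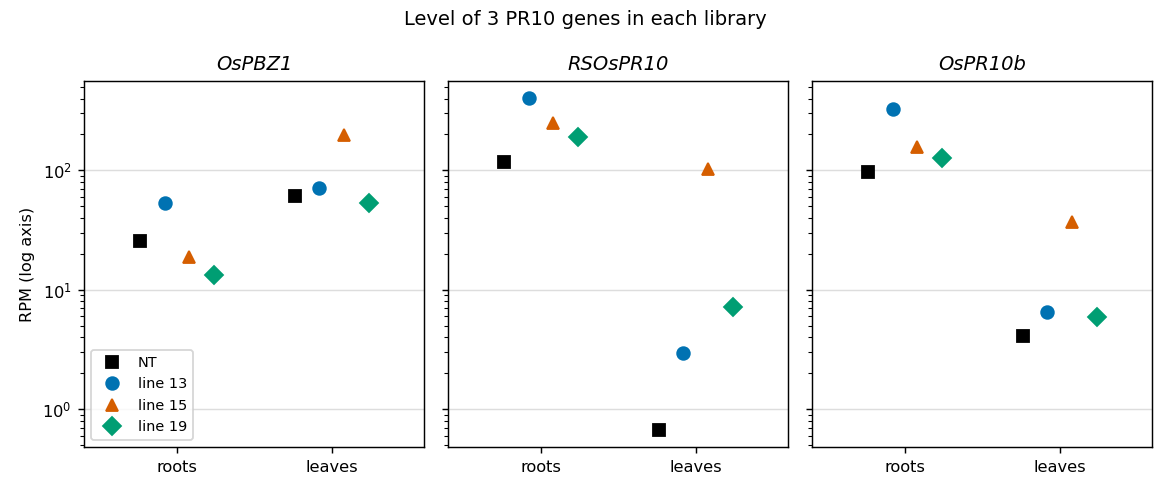
Level of OsPBZ1, RSOsPR10 and OsPR10b in RPM (log axis) in each of the 8 libraries, with 1 point per library and the line given by colour and shape. OsPBZ1 sits higher in leaves and the other 2 genes in roots. Line 13 is the highest root library and line 15 the highest leaf library for all 3.

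Roots and leaves were compared as 4 against 4 libraries, NT and the lines together, with limma on log2(RPM + 1). RSOsPR10 was higher in roots by 4.67 ± 1.09 on that scale (SE, limma adjusted p = 0.00276), and OsPR10b by 3.99 ± 0.61 (adjusted p = 0.000180). OsPBZ1 was lower in roots, with a difference of -1.72 ± 0.48 (adjusted p = 0.00783). The exact two-sided permutation test gave p = 0.0286 for each gene, the smallest that 4 against 4 allows. It follows from the lack of overlap already given, and how many of all genes lacked overlap was not counted. The test shuffled the libraries freely and did not keep root and leaf of a line paired. Tissue differences were the rule in these data: 82.7% of 21991 genes tested passed, 58.5% higher and 24.2% lower in roots, so a pass by itself sets no gene apart. Without line 15 the differences were 5.80 for RSOsPR10, 4.64 for OsPR10b and -1.18 for OsPBZ1, all past the threshold of 0.05 (limma adjusted p 6.97e-05, 2.58e-05 and 0.0339).

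The comparison of the lines with NT asks whether OsbZIP83 overexpression goes with a change of these genes while iron is sufficient. In roots, RSOsPR10 was 3.47, 2.13 and 1.63 times its NT level in lines 13, 15 and 19, and OsPR10b 3.41, 1.62 and 1.31 times. Both were thus above NT in 3 of 3 lines, with the same order of the lines. All 3 ratios share the single NT root library, so they are not separate comparisons. How many of all genes had NT lowest was not counted. OsPBZ1 was at 2.05 times NT in line 13 but at 0.725 and 0.514 times in lines 15 and 19.

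None of the 3 passed the test in roots (limma), nor reached an unadjusted p of 0.05, where 1.16% of all genes were called. The log2 difference was 1.19 ± 1.53 (SE) for RSOsPR10, with a 95% interval of -2.38 to 4.76 and an adjusted p of 0.800. For OsPR10b it was 0.95 ± 0.94 (-1.26 to 3.15, limma adjusted p = 0.725) and for OsPBZ1 -0.11 ± 0.85 (-2.09 to 1.86, limma adjusted p = 0.982). These intervals include changes of several-fold in either direction. The spread behind them is shared with the leaf samples, where line 15 lay far from the others. In a fit on the 4 root libraries alone RSOsPR10 had the same difference with an interval of -0.18 to 2.56 and OsPR10b one of -0.84 to 2.73, and neither passed (limma adjusted p 0.323 and 0.480).

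In leaves, RSOsPR10 was at 4.40, 155 and 10.8 times its NT level in lines 13, 15 and 19. OsPR10b was at 1.58, 8.97 and 1.43 times NT, and OsPBZ1 at 1.15, 3.22 and 0.877 times. Line 15 was the highest of the leaf libraries for all 3, by 14.3-fold over the next for RSOsPR10, 5.68-fold for OsPR10b and 2.79-fold for OsPBZ1. The NT leaf level of RSOsPR10 was under 1 RPM. It is also sensitive to a deduction that the values show, about 0.116% to 0.158% of a gene's total over the 8 libraries. With an estimate of it added back, RSOsPR10 was at 2.49 RPM in NT leaves and at 1.62, 42.1 and 3.55 times that in lines 13, 15 and 19.

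None of the 3 passed the test in leaves (limma), nor reached an unadjusted p of 0.05, against 3.79% of all genes called. RSOsPR10 had a log2 difference of 3.17 ± 1.53 (95% interval -0.40 to 6.74, limma adjusted p = 0.291). OsPR10b had 1.29 ± 0.94 (-0.91 to 3.49, limma adjusted p = 0.502) and OsPBZ1 0.56 ± 0.85 (-1.41 to 2.54, limma adjusted p = 0.781). Without line 15 the differences were 1.77 for RSOsPR10, 0.49 for OsPR10b and 0.01 for OsPBZ1, none past the threshold (limma adjusted p 0.230, 0.713 and 1).

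The difference between the root and leaf effects was tested too, and 0.382% of all genes passed, 84 in all and 26 with line as a block. It was -1.98 ± 2.16 for RSOsPR10, -0.34 ± 1.33 for OsPR10b and -0.68 ± 1.195 for OsPBZ1, with limma adjusted p of 0.712, 0.932 and 0.834. A difference between the tissues in how these genes stand in the lines was thus not detected, and the intervals are wide (-7.03 to 3.07 for RSOsPR10). Without line 15 the values were -0.53 for RSOsPR10, 0.59 for OsPR10b and 0.042 for OsPBZ1, with limma adjusted p of 0.837, 0.794 and 0.993.

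**Figure D2:**
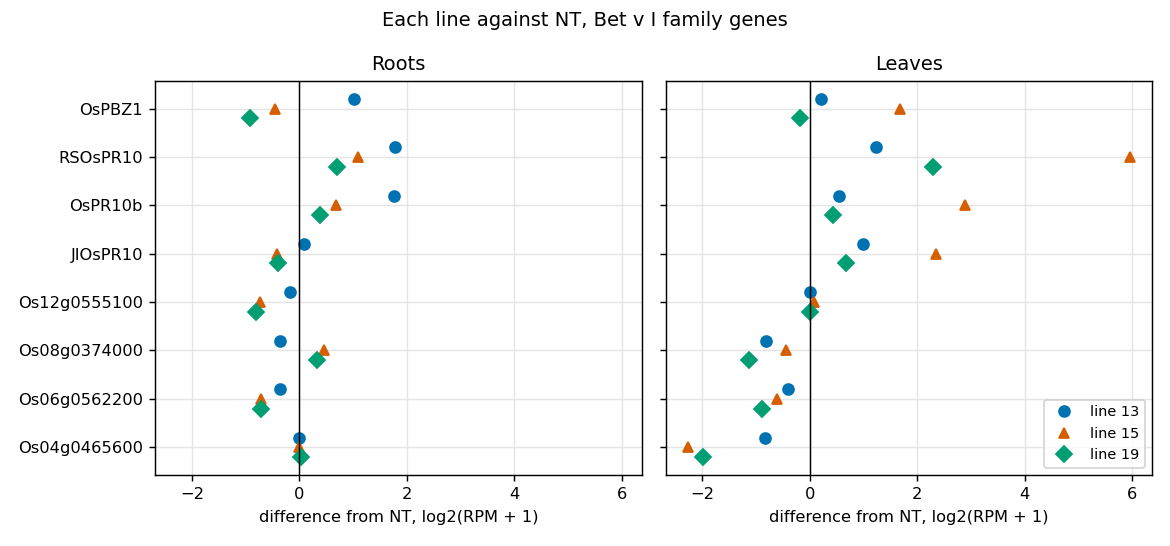
Difference of each line from NT in log2(RPM + 1) in roots and in leaves. Shown are the 8 genes that reach 5 RPM in a library and whose description names Bet v I, PR10, PBZ1 or probenazole. Line 15 lies far to the right in leaves for RSOsPR10, OsPR10b, JIOsPR10 and OsPBZ1, and line 13 lies to the right in roots for the 3 PR10 genes.

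Fewer cells of a type and less RNA per cell cannot be told apart in such tissue samples. Beside the high leaf levels in line 15, the root markers RCc2, RCc3, Lsi2 and OsNRAMP5 were listed at 0 in that library, and Lsi1 was at 3.66 RPM, compared with 4.33 RPM in leaves of line 13. The deduction may have lowered these listed values. Its estimate for JIOsPR10 in line 15 leaves was 5.83 RPM, and RCc3, Lsi1 and Lsi2 had higher means over all libraries than JIOsPR10. JIOsPR10, at 1017 RPM in line 15 roots, was at 16.2 RPM in its leaves. The ratio of leaf to root in line 15 was 0.413 for RSOsPR10, 0.237 for OsPR10b and 0.0160 for JIOsPR10. The ratios differed among the 3 genes. The part of root material or of a defence response in these values was not tested.

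The 10 genes whose description names Bet v I, PR10, PBZ1 or probenazole include the 3 above, and 8 of the 10 passed the filter of a mean of 1 RPM. Os04g0593400 and Os04g0593500, whose InterPro domain entry but not description names Bet v I, were not among the 10. Os04g0593400 was at 5.89 to 9.29 RPM in roots and 0.368 to 0.444 RPM in leaves, and Os04g0593500 at most 0.0821 RPM. None of the 8 passed in the lines, in roots or in leaves (limma), and 1 in roots and 3 in leaves had an unadjusted p under 0.05, as 13.5% of all genes tested did in roots and 20.99% in leaves. The median log2 difference was -0.05 in roots, beside 0 over all genes tested, and 0.30 in leaves, beside 0.09. Between tissues 6 of the 8 were called higher and 2 lower in roots, beside 58.5% and 24.2% of all genes tested. The largest tissue difference among them was that of JIOsPR10 (Os03g0300400), with 1350.2 RPM in NT roots and 1443, 1017 and 1025 RPM in roots of lines 13, 15 and 19, against 2.40, 5.77, 16.2 and 4.46 RPM in leaves. Its log2 difference of roots minus leaves was 7.45 ± 0.42 (limma adjusted p = 1.07e-07), and 6.45 with the deduction added back (limma adjusted p = 3.72e-09). The estimated deduction from its leaf values, 4.62 to 7.68 RPM, exceeded what was left in leaves of NT and line 19. With it added back, line 15 leaves were at 2.19 times NT.

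Os12g0555100, similar to PBZ1 and lying between RSOsPR10 and OsPR10b in locus order, stood otherwise in roots. It was at 10.97 RPM in NT roots and at 9.59, 6.16 and 5.87 RPM in lines 13, 15 and 19, below the single NT root library in 3 of 3 lines, where RSOsPR10 and OsPR10b were above it. The difference of -0.57 ± 0.25 did not pass (limma adjusted p = 0.387). In leaves it was listed at 0 except in line 15, at 0.0615 RPM. The locus Os12g0555300, similar to PR-10a and the next locus after OsPR10b, was at most 0.521 RPM in any library, again in line 15 leaves, and was below the filter. Between it and OsPBZ1 lies Os12g0555400, similar to raffinose synthase, which was higher in leaves like OsPBZ1, at 12.3 to 15.3 RPM with 0.107 to 0.717 RPM in roots. Os12g0555600, a cellulose synthase-like gene just past OsPBZ1, was higher in roots, at 8.88 to 11.9 RPM with 0.0332 to 0.150 RPM in leaves. Neighbours of OsPBZ1 thus lay on either side of the tissue contrast.

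Family genes outside the chromosome 12 group included 1 found almost entirely in leaves. Os04g0465600 was at 8.64 RPM in NT leaves and 4.39, 1.005 and 1.42 RPM in leaves of lines 13, 15 and 19, and at most 0.0234 RPM in roots. It was below the single NT leaf library in 3 of 3 lines, with a difference of -1.70 ± 0.48 that did not pass (limma adjusted p = 0.0992). Without line 13 it was -2.13 and passed (limma adjusted p = 0.0117). Os08g0374000 was at 28.5 RPM in NT roots and 32.5 ± 9.19 RPM in the lines (SD, n = 3), and at 23.2 and 13.2 ± 3.41 RPM in leaves. Os06g0562200, named OsPYL9 among its synonyms and thus of the abscisic acid receptor branch of the fold, was at 15.5 and 10.0 ± 1.62 RPM in roots and at 1.34 and 0.526 ± 0.254 RPM in leaves. The other receptor gene, Os02g0226801 (OsPYL2), was at most 1.15 RPM.

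**Figure D3:**
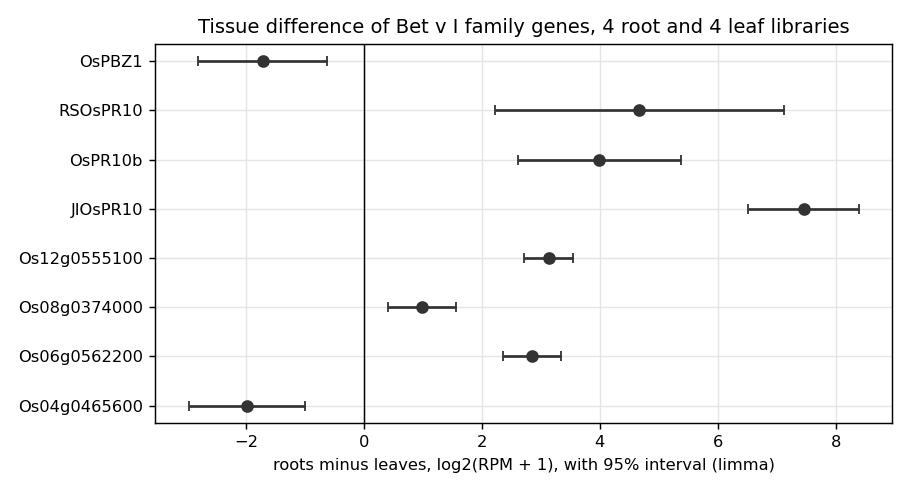
Roots minus leaves in log2(RPM + 1) with 95% intervals from limma, 4 root against 4 leaf libraries, for the same 8 genes. OsPBZ1 and Os04g0465600 lie below 0 and the other 6 above, with JIOsPR10 farthest at 7.45.

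Among the 5 family genes with a leaf mean of at least 5 RPM, 4 were at least 2-fold higher in line 15 than in each other leaf library, where 0.851% of all genes were. They were the 3 PR10 genes and JIOsPR10, which was 2.82-fold above the next library. The leaf mean counts line 15 itself. RSOsPR10, at 0.664 to 7.20 RPM in the other leaf libraries, and JIOsPR10, at 2.40 to 5.77 RPM, reached it only through line 15. With the deduction added back JIOsPR10 was at 22.1 RPM in line 15 leaves and 11.3 RPM in line 19 leaves, short of 2-fold, and 3 of 5 met the rule. In roots 2 of 7, OsPBZ1 and OsPR10b, were at least 2-fold higher in line 13 than in each other root library, by 2.05-fold and 2.11-fold, and 0.189% of all genes were. For NT roots that share was 0.359%, and for lines 15 and 19 it was 0.0196% and 0.0391%. RSOsPR10 was 1.62-fold above the next. This count by library was made after the values were seen and has no replicate check, since each compares 1 library with the others.

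**Figure D4:**
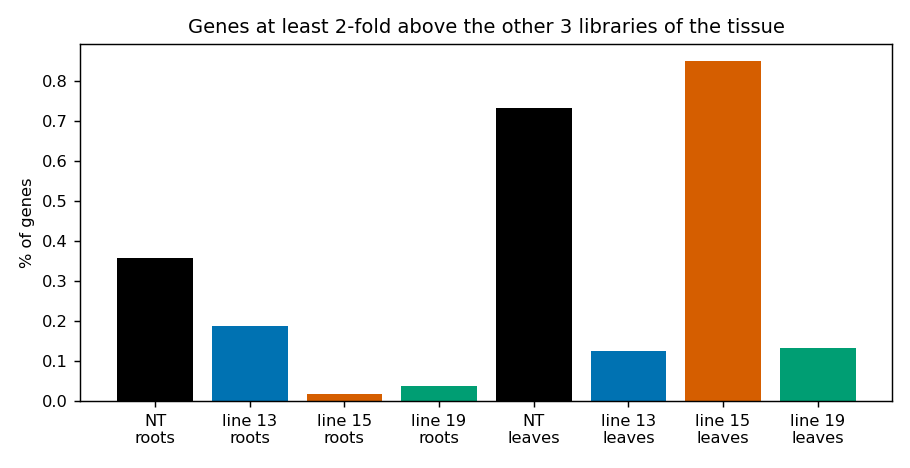
Percentage of genes, of those with a tissue mean of at least 5 RPM, for which 1 library was at least 2-fold above each of the other 3 libraries of its tissue. Line 15 leaves have the tallest bar, 0.851%, and in roots NT is highest at 0.359%, with line 13 at 0.189%.

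Other pathogenesis-related families and defence regulators were counted for context. Their counts in line 15 leaves stand beside 0.851% of all genes. In leaves of line 15, 4 of 11 chitinase genes were at least 2-fold above every other leaf library, among them Os06g0726200 (Cht1) at 44.5 RPM, with 3.22 to 9.35 RPM in the others. Another of the 4, Os01g0660200 (OsChib3a), was at 15.6 RPM, with 2.42 to 5.45 RPM in the others. It reached the leaf mean of 5 RPM only through line 15. The thaumatin gene Os12g0628600 (OsPR5) was at 682 RPM, with 23.6 to 72.9 RPM in the others, and was 1 of 8. The glucanase gene Os07g0539900, 1 of 9 on its list, was at 32.6 RPM, with 3.70 to 7.25 RPM in the others. The list misses Os01g0940700 (OsGlu1), whose description writes beta 1,3-glucanase with a blank, and which was at 37.9 RPM in line 15 leaves and 5.14 to 8.50 RPM in the others. With that spelling taken in, a choice made after the values were seen, 2 of 10 glucanase genes met the rule.

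Of the salicylate and defence regulators 2 of 11 met the same rule, beside 0.851% of all genes. OsWRKY76, a WRKY repressor of defence genes, was at 98.8 RPM in line 15 leaves and 5.02 to 29.6 RPM in the others, and the related OsWRKY62 was at 19.2 RPM with 1.12 to 5.04 RPM in the others. OsWRKY62 reached the leaf mean of 5 RPM only through line 15. RERJ1, a jasmonate-responsive bHLH gene, was the 1 of 7 in the jasmonate and ethylene list, at 71.2 RPM with 20.2 to 35.2 RPM in the others. Among drought and salt genes 0 of 5 did so. The root counts that follow stand beside 0.189% of all genes. In roots of line 13, OsPR5 and the chitinase gene Os01g0660200 (OsChib3a) were at least 2-fold above the other root libraries, 1 of 17 and 1 of 22 genes, and 0 of 12 regulators were. OsGlu1 was too, at 198 RPM with 46.1 to 61.9 RPM in the others, as 1 of 17 glucanase genes in the wider spelling and 0 of 16 without it.

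The test of the lines against NT called other genes of these lists, and every leaf call among them named here was lost in a fit on leaves alone. Over all genes tested 3.79% were called in leaves and 1.16% in roots. The lists' median log2 differences in leaves ran from 0 for the PR1-like genes to 0.44 for the regulators, beside 0.09 over all genes. In leaves OsNPR3, a paralogue of the salicylate receptor NPR1, rose from 2.76 to 10.3 ± 1.97 RPM (limma adjusted p = 0.00944), as 1 of 12 regulators. OsJAMYB, a jasmonate-responsive MYB gene, rose from 3.84 to 19.0 ± 6.20 RPM (limma adjusted p = 0.0189), as 1 of 8 jasmonate and ethylene genes. Without line 19 neither passed (limma adjusted p 0.0868 and 0.150). SalT, a salt-induced lectin gene, fell in leaves from 50.4 to 22.1 ± 2.48 RPM as 1 of 6 drought and salt genes (limma adjusted p = 0.0189), and did not pass without any 1 of the lines (limma adjusted p 0.0534 to 0.0928).

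The counts that follow stand beside 3.79% of all genes called in leaves and 1.16% in roots. Among chitinase genes in leaves 1 rose and 1 fell of 29: Os01g0860500 from 8.27 to 32.7 ± 5.23 RPM and the xylanase inhibitor gene Os05g0247100 from 258 to 102 ± 8.85 RPM. The call of the second was lost without line 15 or line 19 (limma adjusted p 0.0721 and 0.0868). The glucanase list had 1 of 20 higher in leaves, Os01g0944700, and the defensin and thionin list 1 of 8, Os03g0130300. Of 22 thaumatin genes Os03g0243900 fell in leaves and Os09g0536400 rose in roots. The calls of these 4 genes were lost without line 15 and without line 19. Bowman-Birk genes had 0 of 5 calls in either tissue (limma), and 2 in roots and 3 in leaves had an unadjusted p under 0.05, beside the 13.5% and 20.99% of all genes. Os01g0127600, which was not among the 2, was at 414 RPM in NT roots and 387 ± 71.8 RPM in the lines. In the PR1-like list 9 of 12 were higher and 1 lower in roots. All 9 hold the same values as another of them, as Os07g0125000, Os07g0125600 and Os07g0126401 do with 149.7 ± 21.1 RPM in roots of the lines against 7.88 RPM in NT, so these are not 9 separate measurements. With a pseudocount of 0.1 RPM these 3 did not pass (limma adjusted p = 0.0858).

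Genes whose pattern was most like that of each PR10 gene were sought by the Pearson correlation of log2(RPM + 1), centred on each tissue's mean, over the 8 libraries. This describes likeness among few libraries, in which line 15 leaves weigh heavily, and no test goes with it. A correlation takes no account of the size of a change, so a near gene can have moved little. For RSOsPR10 the nearest was Os08g0508800 (OsHI-LOX), a chloroplast lipoxygenase gene of jasmonate synthesis, at 0.993, with 3.19 RPM in NT leaves and 63.8 RPM in line 15 leaves. Os08g0141300 (0.991), Os06g0591200 (0.988), the chitinase gene Os06g0726200 (0.987) and Os04g0611400 (0.985) followed.

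For OsPR10b the nearest were Os12g0635500 (0.995), Os01g0351800 (0.977), the cytochrome P450 gene Os07g0518100 (0.976), Os08g0331800 (0.975) and Os10g0416500 (OsPR8, a chitinase gene, 0.973). For OsPBZ1 they were the acid phosphatase-like gene Os06g0139800 (0.975), Os01g0940700 (OsGlu1, a glucanase gene, 0.969), Os06g0226950 (0.967), Os10g0537800 (0.964) and Os01g0564300 (OsFKBP46, 0.956). The size of change varied among these genes. OsGlu1 was at 37.9 RPM in line 15 leaves and 5.14 to 8.50 RPM in the others. In leaves Os06g0139800 was at 3.07 to 4.27 RPM and Os01g0351800 at 0.847 to 1.29 RPM. Os10g0537800 was listed at 0 in leaves except in line 15, at 0.253 RPM.

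Among the 3 PR10 genes themselves the likeness was 0.938 for RSOsPR10 and OsPR10b, 0.861 for OsPBZ1 and OsPR10b, and 0.715 for OsPBZ1 and RSOsPR10. Many of the 15860 genes compared were nearer. OsPR10b ranked 147 for RSOsPR10, and RSOsPR10 ranked 54 for OsPR10b. OsPBZ1 ranked 233 for OsPR10b and 1285 for RSOsPR10, while for OsPBZ1 they ranked 50 and 341. Without the line 15 leaf library, left out after the values were seen, the 3 correlations were 0.752, 0.700 and 0.264 over 7 libraries, and the 5 nearest genes of each PR10 gene had values of 0.910 to 0.982. Without centring, which lets the tissue difference count, the values were 0.969, -0.463 and -0.362. The nearest genes were then the chitinase gene Os06g0726200 for RSOsPR10 (0.995), Os12g0635500 for OsPR10b (0.999) and the leucine-rich repeat gene Os10g0469600 for OsPBZ1 (0.953). The other 4 were Os04g0121800, Os10g0470700 (OsPTR3), Os01g0963000 (prx22) and Os06g0591200 for RSOsPR10, at 0.988 to 0.992. They were Os11g0229333, the ABC transporter genes Os07g0522500 and Os04g0209200, and Os01g0864500 for OsPR10b, at 0.991 to 0.995. For OsPBZ1 they were Os01g0602400, Os03g0179900, Os02g0320100 and Os01g0269900, at 0.924 to 0.943.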

How the data were processed

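RNA from roots and leaves of NT and 3 lines was measured by Lasy-Seq. The authors deposited 1 table with a column for each of the 8 libraries, and 0 other columns of sample values. The series' design text gives the unit as RPM. The deposited values were handled as a signal scaled by the authors, since the 46120 genes sum to 1000000 per library, and so do the 10 ribosomal RNAs and the 92 spike-in controls. The submitters' processing notes name RSEM 1.2.21, Bowtie 1.2.3, Trimmomatic 0.39 and the genome IRGSP-1.0, with no roles or settings. Gene names come from the table's own columns, and sequences and coordinates were not used here. Whether reads were shared among the similar PR10 copies was not tested; 0 of the 10 family genes hold the values of another.

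The most frequent value above 0 was taken as 1 read. Under 20 reads, 49.7% to 62.5% of values were whole to within 0.1 read, so no count test was run. Values of genes totalling 200 to 600 reads came out whole for 8.15% to 9.82% in the deposited form, and for 55.6% to 58.2% after 0.116% to 0.158% of the gene's total was added back. No source used here describes this deduction.

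Groups follow the sample titles. Genes averaging 1 RPM or more (21991) were tested on log2(RPM + 1) with limma 3.58.1 in R 4.3.3 (lmFit, eBayes with a trend, 4 group means, or 4 root against 4 leaf libraries), two-sided, with Benjamini-Hochberg adjustment over all of them and a threshold of 0.05. Such differences understate changes of low genes. The fit was also run on simulated data in which NT had the same spread as the lines and libraries were independent. That run could not check whether these assumptions hold here. Tables and figures used Python 3.11.15 with pandas 2.3.3, scipy 1.17.1 and matplotlib 3.10.9. SDs are over the 3 lines.

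The members, lists and the rule for named genes were chosen with earlier results of these data known. The rule names the 3 members, OsbZIP83, family genes reaching 5 RPM, 5 genes most like each member with and without centring on tissue, and up to 3 called genes per list in roots or leaves, filled to 2 with the most abundant. The genes named for line 15 or line 13 standing 2-fold apart, and the loci beside the members, were chosen after their values were seen. Of 55 symbols searched, 41 matched 1 locus; 13 on several loci and 1 not found were left out. The labels give root and leaf samples of each line the same line name, which pairs them; after subtracting group means, root and leaf values of line 13 had a correlation of 0.201 over the 21991 genes, those of line 15 of -0.01 and those of line 19 of 0.152.

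Alternatives were other pseudocounts (0.1 and 5 RPM), other filters, TMM rescaling, quantile normalization, the deduction added back, each tissue alone, line as a block, and leaving out each line. Adding the deduction back before the count by library, a wider spelling of the glucanase list and likeness without the line 15 leaf library were added after the values were seen.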

Additional observations from a re-analysis of the deposited data

How the results depend on the processing

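The tissue difference of each of the 3 PR10 genes kept its direction and stayed past the threshold under every alternative run: it ranged over 3.84 to 5.80 for RSOsPR10, 3.40 to 4.64 for OsPR10b and -2.33 to -1.18 for OsPBZ1. TMM rescaling moved the median of all genes from 0.59 to 0.04 in this contrast. No line against NT difference of the 3 passed under any alternative, and each tissue held 1 NT library. With line as a replicate block, which pairs root and leaf of a line, the tissue differences were unchanged in size (4.67, 3.99 and -1.72) and no call of the 3 genes changed. Leaving out 1 line turned the sign of 3 uncalled values: for OsPBZ1 in roots, -0.68 to 0.28 (0.05 without line 15 and 0.28 without line 19), and, in the difference of the root and leaf effects, -1.42 to 0.042 for OsPBZ1 and -1.12 to 0.59 for OsPR10b. The sign also turned for uncalled values of Os08g0374000 in roots (-0.013 to 0.39 without 1 line), Os04g0465600 in roots (-0.0033 with the deduction added back) and Os06g0562200 in the difference of effects (-0.26 with a pseudocount of 5 RPM; -0.033 to 0.10 on leaving out lines). Os08g0374000 lost its tissue call with TMM rescaling (0.39) and quantile normalization (0.51). Over all genes, the calls in roots were 410 with a pseudocount of 5 RPM (154 higher), 684 without a filter (179 higher), 121 with a filter at 5 RPM, 57 in roots alone and 64 to 253 without 1 line, against 256 (144 higher). In leaves they were 16 in leaves alone and 90 to 803 without 1 line, against 834. Higher calls in leaves were 585 of 834, 336 of 692 without a filter, 468 of 783 with TMM rescaling and 377 of 670 with quantile normalization. For the difference of effects they were 161, 245, 31, 54 and 26 with that pseudocount, no filter, that filter, quantile normalization and line as a block, and 0 to 25 without 1 line, against 84. Fits without a line leave 2 lines and 1 NT library per tissue, and NT could not be left out.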
